A study of Mus musculus with 6 samples.

Results

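Wnt proteins are secreted signals that bind Frizzled receptors and the co-receptors Lrp5 and Lrp6. The Dishevelled proteins (Dvl) relay the signal inside the cell to a destruction complex built on Axin, and beta-catenin then escapes degradation and works with TCF/LEF factors in the nucleus. Secreted frizzled-related proteins (Sfrp, with Frzb) bind Wnts outside the cell, Dickkopf proteins (Dkk) act mostly on Lrp5 and Lrp6, and Axin2 is a Wnt target gene whose product limits the same pathway. In skeletal muscle, Wnt signals take part in the growth, commitment and differentiation of myoblasts.

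The 9 genes described here are the secreted antagonists Sfrp1, Sfrp2, Frzb, Dkk2 and Dkk3, the feedback scaffold Axin2, and the transducers Dvl1, Dvl2 and Dvl3. They were found by symbol among 22988 rows, each as a single row, and they were chosen by their FPKM levels and differences in these same libraries, so the counts and differences below are descriptions. Polyadenylated RNA was sequenced from C2C12, an established myoblast cell line of the mouse (strain C3H by its label), in 3 libraries. The starved library came from cells given the siRNA called siNS and held in HBSS, a salt buffer without amino acids, for 4 h, the knockdown library from non-starved cells given siRNA against Foxk1, and the control library from non-starved cells given siNS. Foxk1 is a forkhead transcription factor, and it stood at 16.1 FPKM in the starved library and 5.15 FPKM in the knockdown library against 9.09 FPKM in the control library, so the knockdown library kept 0.567 times the control level.

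Values are the authors' mean FPKM, a fragment count scaled by transcript length and library size, with the authors' 95% interval. Each group had 1 library, so no difference has a replicate check and no test was run. Genes whose intervals do not overlap between 2 libraries are called apart, which compares the libraries and not the conditions. The starved and knockdown libraries were each compared with the same control library, so a difference in both comparisons is not 2 independent observations. A row was used in a comparison, or entered, where either library reached 1 FPKM. FPKM summed to 527673 in the starved, 562498 in the knockdown and 566803 in the control library, and the read depth is unknown. The median half-width of the intervals of rows at 5 FPKM or more was between 17.7% and 19.5% of the value. The 7 myoblast markers, among them Myod1, Des and Pax7, were at 1 FPKM or more in each library, and their summed levels were 799 FPKM in the starved, 934 FPKM in the knockdown and 907 FPKM in the control library. Myod1 alone was at 10.7 FPKM in the starved and 95.8 FPKM in the knockdown library against 70.1 FPKM in the control library, lower apart in the starved library. Myf5, another myoblast regulator, was higher apart in the starved library, at 29.6 FPKM against 16.8 FPKM in the control library, and the other 5 markers overlapped the control in the starved library, as all 7 did in the knockdown library. Their part in the members' levels was not tested.

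The start windows of Sfrp2, Dkk2 and Dvl2, the 3 members with the largest fold changes among those with a window, are shown so that the values can be read beside their sequence. RefSeq (build GRCm38.p6) gave windows of 300 bases, from 250 before to 50 after the annotated start, for 7 of the 9 members, all but Sfrp1 and Dkk3. Capitals mark matches, on either strand, to any of 5 motifs. They are the TCF/LEF letters CTTTGA, the forkhead letters TGTTTA, the E-box letters CACGTG, a second E-box with the letters CAGCTG, and the TATA box letters TATAAA. No matches overlap one another in these windows.
Sfrp2, chr3:83766071-83766370, plus strand: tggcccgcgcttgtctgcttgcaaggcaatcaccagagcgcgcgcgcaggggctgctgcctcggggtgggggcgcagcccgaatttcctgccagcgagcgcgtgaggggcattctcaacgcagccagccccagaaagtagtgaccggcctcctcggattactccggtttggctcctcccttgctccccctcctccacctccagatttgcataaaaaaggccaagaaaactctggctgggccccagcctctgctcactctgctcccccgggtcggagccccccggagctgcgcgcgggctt
Dkk2, chr3:132085042-132085341, plus strand: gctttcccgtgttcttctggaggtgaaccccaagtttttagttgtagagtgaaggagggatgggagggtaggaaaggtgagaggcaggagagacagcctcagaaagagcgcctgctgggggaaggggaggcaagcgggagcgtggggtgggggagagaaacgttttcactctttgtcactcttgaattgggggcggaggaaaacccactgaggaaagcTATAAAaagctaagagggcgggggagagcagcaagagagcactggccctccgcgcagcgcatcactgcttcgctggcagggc
Dvl2, chr11:70000342-70000641, plus strand: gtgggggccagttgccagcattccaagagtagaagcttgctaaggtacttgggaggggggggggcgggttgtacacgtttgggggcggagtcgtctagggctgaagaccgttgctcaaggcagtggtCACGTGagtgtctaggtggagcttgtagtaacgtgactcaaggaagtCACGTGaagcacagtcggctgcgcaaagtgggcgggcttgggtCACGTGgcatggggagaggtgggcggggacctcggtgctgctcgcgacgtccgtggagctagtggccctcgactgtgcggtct

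The Dvl2 window held 3 copies of CACGTG, the letters bound by bHLH factors such as Myc, Usf1 and Tfeb. They began 123, 76 and 33 bases before the start. Of 32851 mouse windows of this length, 2349 (7.15%) held at least 1 copy and 29 (0.0883%) held 3 or more. The windows of Dvl1 and Dvl3 held none. The Dkk2 window held TATAAA, which began 32 bases before the start and was present in 13.6% of all windows. The Sfrp2 window held none of the 5 motifs. The letters CTTTGA stood in the Frzb window only among the 7, and in 16.0% of all windows, while TGTTTA stood in none of the 7 and in 13.4% of all windows. All 7 windows were richer in G and C, from 57.7% in Dkk2 to 74.0% in Dvl3, than the median window at 52.7%. The motif shares given over all windows were not matched for G and C content. A match describes letters, not a bound site, and whether Foxk1 or Sin3A regions lie near these genes was not analysed here because those regions are on build mm9.

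Sfrp2, which encodes a secreted protein with a Frizzled-like Wnt-binding domain, had the largest difference of the group. It stood at 4.28 FPKM (3.15 to 5.38) in the starved library, 56.7 FPKM (44.3 to 66.1) in the knockdown library and 2.87 FPKM (2.14 to 3.55) in the control library. The knockdown library was thus high, apart from both others, while the intervals of the starved and control libraries overlapped. The knockdown value was 19.8 times the control and 13.2 times the starved value. On the scale of log2(FPKM + 1) the difference to the control was 3.90, or from 3.32 to 4.42 when the opposite limits of the intervals are set against each other. Of 1820 rows apart in the knockdown comparison, 0 had a higher fold change, though 23 rows with overlapping intervals did. Within the knockdown library Sfrp2 stood above 85.6% of the rows at 1 FPKM or more, against 18.5% in the starved and 11.7% in the control library. In these bulk samples, more cells that make a transcript and more transcript per cell cannot be told apart.

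Sfrp1, another secreted Wnt-binding protein of the family, was also highest in the knockdown library, at a lower level. It was at 1.37 FPKM (1.06 to 1.68) in the starved library, 3.66 FPKM (2.94 to 4.36) in the knockdown library and 1.61 FPKM (1.28 to 1.94) in the control library. Only the knockdown library stood apart, at 2.27 times the control, with a log2 fold change of 0.83. Frzb, also a secreted frizzled-related gene, was close to undetected, at 0.0144 FPKM (0 to 0.0601), 0.0235 FPKM (0 to 0.0480) and 0.0270 FPKM (0 to 0.0727) in the starved, knockdown and control libraries. Its intervals all reached 0, and it entered neither comparison. Sfrp4, of the same family but outside the 9 genes, was lower apart in the starved library, at 1.20 FPKM against 2.16 FPKM in the control library. In the knockdown library it was at 1.26 FPKM, and its interval overlapped that of the control. Sfrp5 was listed at 0 in each library.

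Summed over the 5 family genes, Sfrp transcripts came to 6.87 FPKM in the starved, 61.6 FPKM in the knockdown and 6.67 FPKM in the control library. Sfrp2 made up 62.3%, 92.0% and 43.0% of these sums. The ratio of Sfrp2 to Sfrp1 within a library was 3.12 in the starved, 15.5 in the knockdown and 1.78 in the control library. Setting opposite limits against each other gives 1.87 to 5.08, 10.2 to 22.5 and 1.10 to 2.78. The starved and control ranges overlap, and the knockdown range lies above both.

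**Figure D1:**
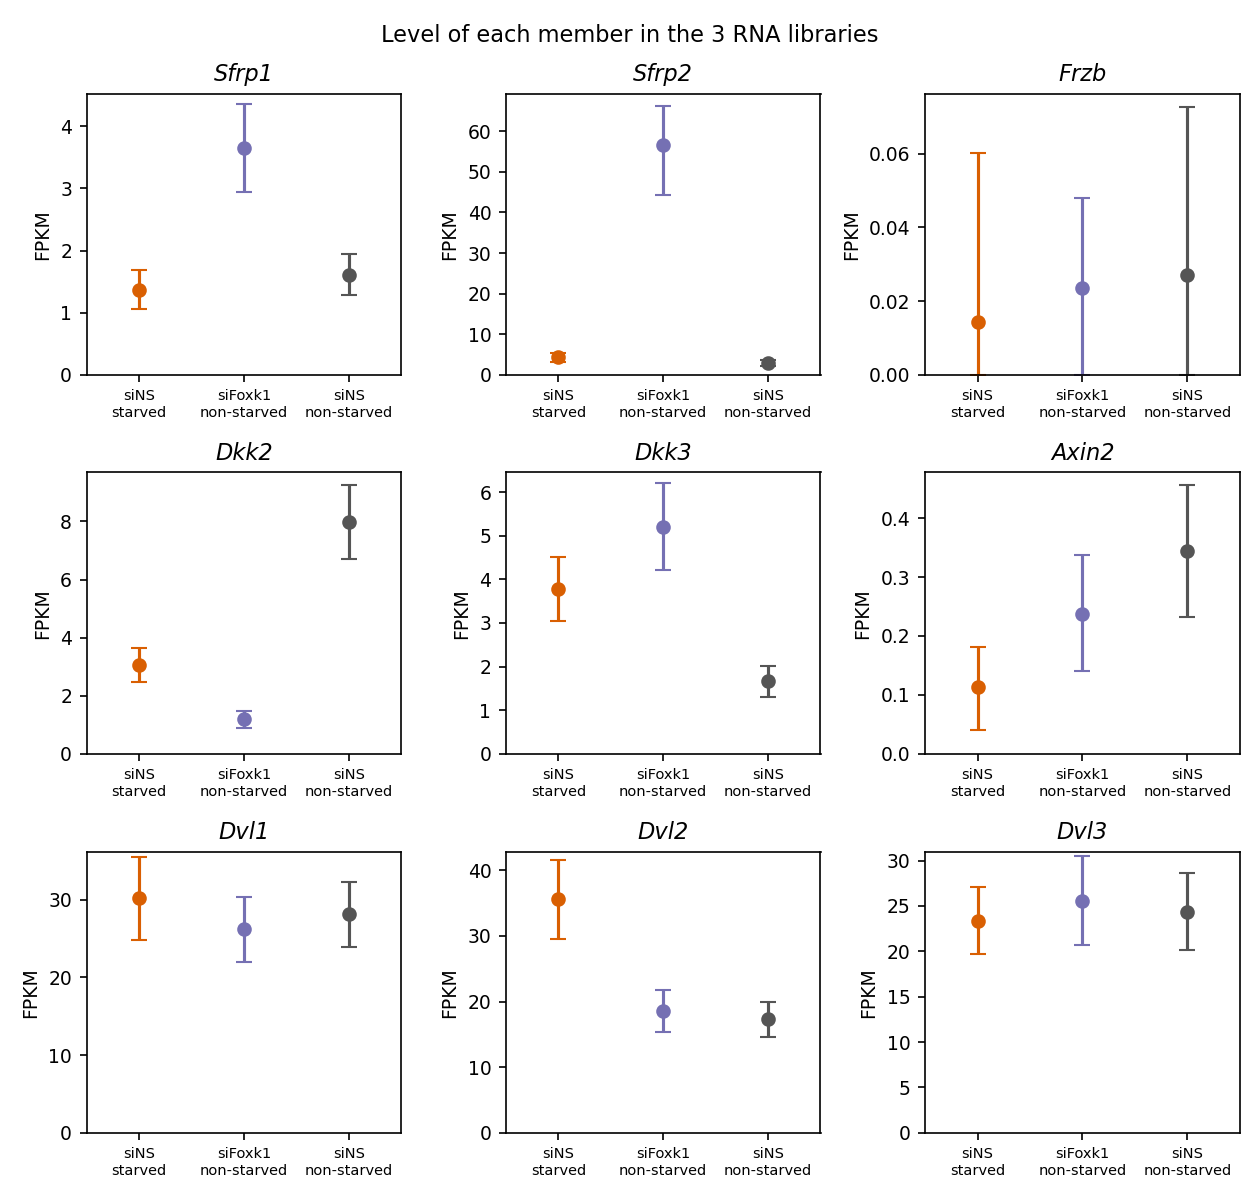
Mean FPKM (points) and the authors' 95% intervals (bars) of the 9 members in the siNS starved, siFoxk1 non-starved and siNS non-starved libraries, 1 library each and with a separate vertical axis per gene. Sfrp2 reached 56.7 FPKM in the knockdown library, Dkk2 was highest in the control library at 7.998 FPKM, and Dvl2 was highest in the starved library at 35.6 FPKM.

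The Dickkopf genes Dkk2 and Dkk3 went in opposite directions, and each did so in both comparisons, which share the control library. Dkk2 encodes a ligand of Lrp6 that can inhibit or, in some settings, activate Wnt signalling. It was at 3.07 FPKM (2.48 to 3.65) in the starved library, 1.19 FPKM (0.899 to 1.48) in the knockdown library and 7.998 FPKM (6.70 to 9.27) in the control library. All 3 intervals were apart, with the knockdown library lowest and the control library highest. The starved value was 0.384 times and the knockdown value 0.149 times the control, which are log2 fold changes of -1.14 and -2.04. Of the 1820 rows apart in the knockdown comparison, 11 had a lower fold change than Dkk2, and in the starved comparison 180 of 2636 did.

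Dkk3, a divergent Dickkopf whose action on Wnt signalling is less settled, stood at 3.78 FPKM (3.05 to 4.51) in the starved library and 5.21 FPKM (4.21 to 6.21) in the knockdown library. In the control library it was at 1.67 FPKM (1.31 to 2.02). Both were apart from the control, and their intervals overlapped each other. The values were 2.27 and 3.13 times the control in the starved and knockdown libraries, with log2 fold changes of 0.84 and 1.22. The remaining mouse Dickkopf genes, Dkk1 and Dkk4, stayed under 0.1 FPKM in each library.

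Dkk3 was the more abundant of the pair in the knockdown library and Dkk2 in the control library, while their intervals overlapped in the starved library. The ratio of Dkk2 to Dkk3 was 0.811 in the starved, 0.229 in the knockdown and 4.80 in the control library. Setting opposite limits against each other gives 0.550 to 1.20, 0.145 to 0.351 and 3.31 to 7.10, ranges that do not overlap. The family sum varied less than its make-up, at 6.89 FPKM in the starved, 6.51 FPKM in the knockdown and 9.73 FPKM in the control library.

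**Figure D2:**
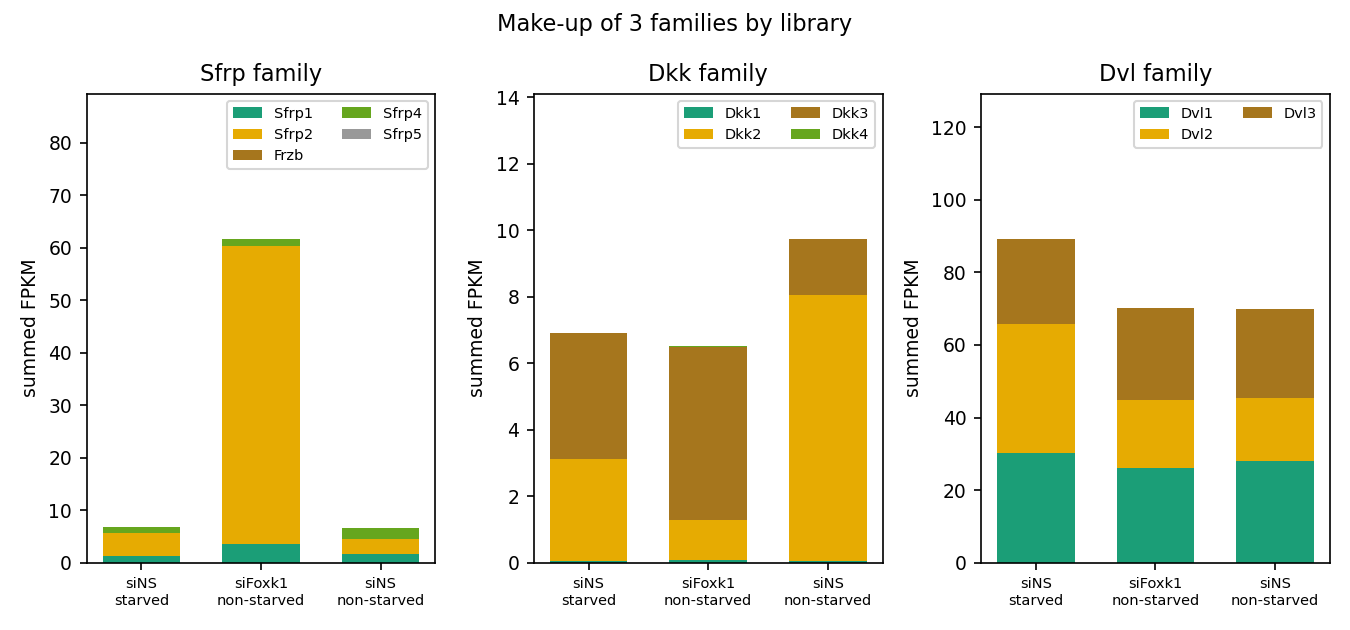
Summed FPKM of the Sfrp, Dkk and Dvl families (stacked bars, vertical axis in FPKM) in the siNS starved, siFoxk1 non-starved and siNS non-starved libraries, 1 library each and without intervals. Sfrp2 took 92.0% of the Sfrp sum in the knockdown library, Dkk2 was below Dkk3 in the knockdown library, and Dvl2 took 39.9% of the Dvl sum in the starved library.

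Axin2, the scaffold that beta-catenin induces and that then helps to degrade beta-catenin, was low throughout. It stood at 0.114 FPKM (0.0412 to 0.181) in the starved library, 0.238 FPKM (0.140 to 0.338) in the knockdown library and 0.345 FPKM (0.233 to 0.457) in the control library. The starved interval lay below the control interval, while the knockdown interval overlapped both. Being under 1 FPKM in each library, Axin2 entered neither comparison, and its half-widths of 61.3%, 41.5% and 32.5% of the value were wider than those of the members above 1 FPKM. The starved value was 0.331 times the control in plain FPKM. With 1 added to each value the log2 fold change was only -0.27, and with 0.1 added it was -1.05. Its relative Axin1, a constitutive scaffold of the destruction complex, was at 25.4 FPKM in the starved, 23.9 FPKM in the knockdown and 22.7 FPKM in the control library, with overlapping intervals against the control.

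The transducers Dvl1, Dvl2 and Dvl3 were the most abundant members in the starved and control libraries, and in the knockdown library they came after Sfrp2. Dvl2 was at 35.6 FPKM (29.6 to 41.5) in the starved library, 18.6 FPKM (15.3 to 21.8) in the knockdown library and 17.3 FPKM (14.6 to 20.0) in the control library. The starved library was high and apart from both others, and the knockdown and control intervals overlapped. The starved value was 2.06 times the control, a log2 fold change of 1.00. Of the 2636 rows apart in the starved comparison, 319 had a higher fold change. The start window of Dvl2 holds the 3 copies of CACGTG printed above, and any link to its level was not tested.

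Dvl1 and Dvl3, which share the relay role of Dvl2, did not separate the libraries. Dvl1 was at 30.2 FPKM (24.8 to 35.6) in the starved, 26.2 FPKM (22.03 to 30.3) in the knockdown and 28.1 FPKM (23.9 to 32.3) in the control library. Dvl3 was at 23.4 FPKM (19.7 to 27.1), 25.6 FPKM (20.7 to 30.5) and 24.4 FPKM (20.2 to 28.6) in the same order. All intervals of each gene overlapped. Dvl2 thus made up 39.9% of the summed Dvl transcripts in the starved, 26.4% in the knockdown and 24.8% in the control library, and it was the lowest of the 3 in the knockdown and control libraries but the highest in the starved library, where its interval overlapped that of Dvl1 and lay above that of Dvl3. In the knockdown library its interval overlapped that of Dvl3 and lay below that of Dvl1, and in the control library it lay below both. In RefSeq, Tas1r3 overlaps Dvl1 and Gm16618 overlaps Dvl3. Whether counting used strand is not given in the sources used here, so reads in those overlaps cannot be told apart, and Tas1r3 itself was listed under 0.2 FPKM in each library.

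Counted together, 7 of the 9 members entered each comparison, and all 7 were at 1 FPKM or more in each of the 3 libraries. In the starved comparison 2 were higher apart (Dkk3 and Dvl2) and 1 lower apart (Dkk2), where 12.2% of 11396 rows were higher and 10.9% lower. In the knockdown comparison 3 were higher apart (Sfrp1, Sfrp2 and Dkk3) and 1 lower apart (Dkk2), where 8.89% of 11357 rows were higher and 7.13% lower. The median log2 fold change of the 7 was 0.10 in each comparison, against -0.01 and 0.02 over all rows entered in the starved and knockdown comparisons. Asking also for a 2-fold difference on that scale left Dvl2 higher and Dkk2 lower in the starved comparison, where 2.81% of rows were higher and 2.34% lower. It left Sfrp2 and Dkk3 higher and Dkk2 lower in the knockdown comparison, where 2.07% of rows were higher and 1.07% lower. When the starved library is scaled to the FPKM sum of the control, 66.5% of its rows apart are higher in place of 52.7%, and the members apart are the same 3.

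**Figure D3:**
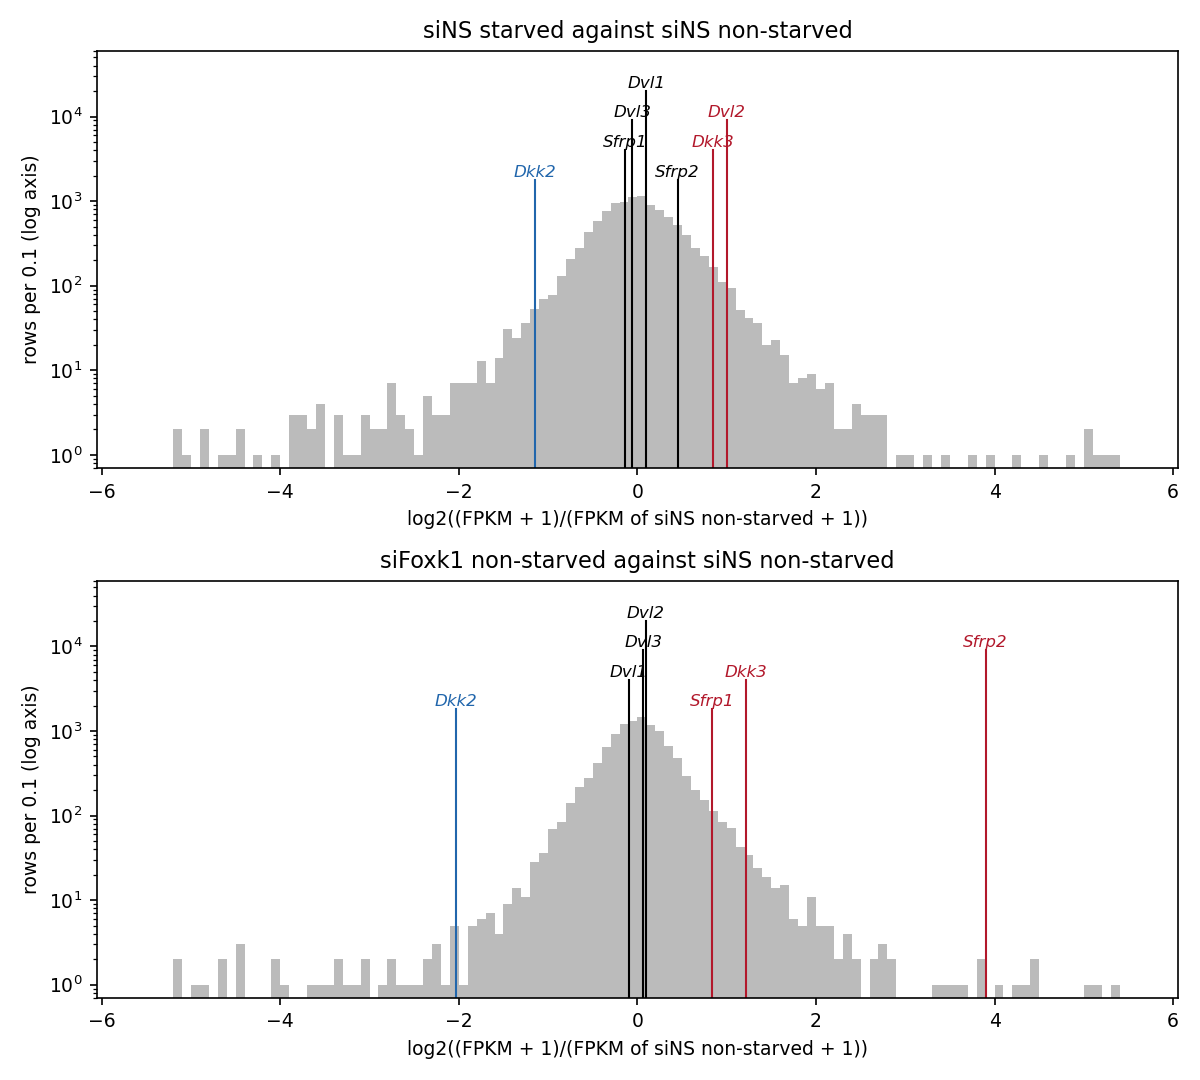
Number of rows (grey, logarithmic vertical axis) by log2 fold change of FPKM + 1 in the starved (top) and knockdown (bottom) comparison, each against the siNS non-starved library, with lines at the 7 members entered (red higher apart, blue lower apart, black overlapping); 21 rows in each comparison lie beyond 5.5 on either side and are not drawn. Sfrp2 at 3.90 and Dkk2 at -2.04 lie in the sparse tails of the knockdown comparison, and Dvl1 and Dvl3 lie near 0 in both.

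By a fixed rule, the 3 rows nearest to Sfrp2 over the 2 fold changes were sought among 8958 single rows that reached 5 FPKM in at least 1 library. They were Fbln7, which encodes a fibulin of the matrix, Car3, a carbonic anhydrase gene, and Ogn, which encodes the small proteoglycan osteoglycin. Their distances were 1.04, 1.30 and 1.52 log2 units, so no row came close to Sfrp2. Fbln7 was at 1.58 FPKM in the starved, 14.2 FPKM in the knockdown and 1.09 FPKM in the control library. Car3 was at 33.9, 193 and 30.2 FPKM and Ogn at 84.2, 326 and 61.9 FPKM in the same order. The rows nearest to Axin2, whose fold changes are compressed by the added 1, were Lsm12, Rnmtl1 and Poldip2, all within 0.011 log2 units and each lower in both comparisons by less than 0.3. Lsm12 was at 70.6 FPKM in the starved, 78.8 FPKM in the knockdown and 85.4 FPKM in the control library. Axin2 was at 0.114, 0.238 and 0.345 FPKM in the same order. The nearness thus holds with 1 added and not in plain FPKM.

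Muscle differentiation markers were higher in the knockdown library, where Sfrp1, Sfrp2 and Dkk3 were higher too. All 7 measured, Myog, Acta1, Tnnt1, Myl1, Mylpf, Myh3 and Ckm, were higher apart, where 8.89% of all rows entered were. Ckm, at 2.67 FPKM against 0.324 FPKM in the control library, entered only through the knockdown library. In the starved comparison 6 entered, of which Myog was lower apart, at 6.02 FPKM against 14.2 FPKM in the control library, and the other 5 overlapped. The summed level of the 7 was 37.7 FPKM in the starved and 232 FPKM in the knockdown library against 54.9 FPKM in the control library. None of the 7 was listed at 0. Among 6 fibroblast and fibro-adipogenic markers, Dcn was higher apart in the knockdown library, at 30.0 FPKM against 9.64 FPKM in the control library, while Thy1 and Lum stayed under 0.1 FPKM, and the sum was 191 FPKM in the starved, 238 FPKM in the knockdown and 228 FPKM in the control library. Ly6a alone gave 177, 206 and 216 FPKM of these sums, so they say little of the other 5. In the starved library 1 of the 6, Pdgfra, was higher apart, and Thy1 was at 0 in the control library. The part of these changes in the members' levels was not tested. The 4 endothelial markers summed to less than 0.4 FPKM in each library, and of 3 measured blood cell markers only Cd68 reached 1 FPKM. Bone and cartilage markers were led by Runx2 at 18.5 to 21.9 FPKM, with Ibsp at 0 in each library, and the adipocyte markers by Pparg and Cebpa, with Plin1 at 0 in each library. Cebpa was higher apart in both comparisons.

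The rest of the pathway was read from 120 listed Wnt genes that are not members, 119 of them measured. In the starved comparison 70 entered, of which 11 (15.7%) were higher and 6 (8.57%) lower, intervals apart, at a median log2 fold change of 0.15, where 12.2% of all rows entered were higher and 10.9% lower at a median of -0.01. Scaled to the FPKM sum of the control, these counts are 17 and 4, where 15.6% of all rows were higher and 7.83% lower. In the knockdown comparison 73 entered, of which 17 (23.3%) were higher and 4 (5.48%) lower, intervals apart, at a median of 0.14, where 8.89% of all rows entered were higher and 7.13% lower at a median of 0.02. The role counts that follow are to be read against the same shares. Of the 68 genes at 1 FPKM or more in both libraries of the starved comparison, 10 were higher and 6 lower apart, where 11.6% of such rows were higher and 10.7% lower. Of the 67 in the knockdown comparison, 15 were higher and 3 lower apart, where 8.41% of such rows were higher and 6.69% lower. These lists, too, were written with earlier results of the data known.

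Among 19 Wnt ligands, 5 entered each comparison. Wnt10a, a ligand of the beta-catenin branch, was at 3.43 FPKM (2.63 to 4.22) in the starved library and 18.1 FPKM (14.5 to 21.7) in the knockdown library against 12.2 FPKM (9.95 to 14.3) in the control library, so it was lower apart in the starved and higher apart in the knockdown library. Wnt9a was higher apart in the starved library, at 6.19 FPKM against 3.47 FPKM in the control library. Wnt7b was lower apart in the knockdown library, with 0.164 FPKM there and 1.22 FPKM in the control library. It entered that comparison only through the control library. Porcn, which encodes the acyltransferase that Wnts need for secretion, was at 10.2 FPKM in the knockdown library against 5.23 FPKM in the control library, apart.

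Of the receptors and co-receptors, 1 of 13 was higher apart in the starved and 4 of 14 in the knockdown library, with none lower. Kremen1, a receptor for Dickkopf proteins, was at 91.5 FPKM (77.4 to 106) in the knockdown library against 43.4 FPKM (37.4 to 49.4) in the control library. The Frizzled genes Fzd4 and Fzd5 were 2.69 and 1.91 times the control in the knockdown library, and Fzd5 was also higher apart in the starved library, at 1.56 times. Lgr4, a receptor for R-spondins, was higher apart in the knockdown library at 17.7 FPKM against 7.79 FPKM in the control library. Lgr6, of the same family, was lower apart in the starved library at 1.02 FPKM against 3.88 FPKM.

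The destruction complex and its regulators were the list with the most genes higher in the starved library, 6 of 17, with 0 lower. Frat2, an inhibitor of the kinase Gsk3, was at 5.09 FPKM (3.88 to 6.22) in the starved library against 1.29 FPKM (0.934 to 1.64) in the control library. Tnks, which encodes the Axin-degrading tankyrase, was 1.82 times and Dact2, a Dishevelled-binding protein gene, 1.62 times the control. In the knockdown comparison 0 of 17 were higher apart and 1 was lower, Dact3, at 2.18 FPKM against 3.38 FPKM in the control library. Dact3 was also among the 6 higher apart in the starved library, at 5.06 FPKM. The others of the 6 were the kinase gene Gsk3b and Amer1. They were at 33.4 and 4.61 FPKM there against 23.8 and 3.19 FPKM in the control library. Of the planar polarity and noncanonical genes, 2 of 11 were higher apart in each comparison. They were Daam2 and Daam1, formin genes of the Dishevelled pathway, in the starved library at 2.43 and 1.46 times the control, and Nfatc4 and Prickle1 in the knockdown library at 2.22 and 1.54 times.

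Of 13 nuclear factors entered in the knockdown comparison, 5 were higher apart and 0 lower, and of 12 in the starved comparison 0 were higher and 1 lower. Lef1, a TCF/LEF factor, was at 4.91 FPKM (3.92 to 5.91) in the starved library and 15.9 FPKM (12.8 to 18.9) in the knockdown library against 7.58 FPKM (6.19 to 8.98) in the control library, so it was lower apart in the starved and higher apart in the knockdown library. Wnt10a stood likewise. Tcf7 was 1.94 times and Bcl9, a beta-catenin cofactor gene, 1.69 times the control in the knockdown library. The others of the 5 were Tcf7l1, at 1.57 times, and Tle2, at 1.61 times. The list of feedback targets holds 19 genes, Lef1, Tcf7 and Kremen1 again among them. Of these, Nkd1, Rnf43, Sp5, Lgr5, Dkk1 and Twist1 were under 0.1 FPKM in each library, and Bambi and Notum did not reach 1 FPKM. Of the genes entered, 6 of 11 were higher and 2 lower apart in the knockdown library. In the starved library 1 of 10 was higher and 3 lower apart. Of those higher, Wisp2 in both comparisons and Nkd2 in the knockdown comparison, at 1.11 FPKM against 0.201 FPKM in the control library, entered only through the library where they were high. The feedback list also holds Wnt target genes that are not regulators of the pathway, such as Ccnd1, so its counts are not of feedback alone. Among its genes at 1 FPKM or more in both libraries, 4 were higher and 2 lower apart in the knockdown and 0 higher and 3 lower apart in the starved comparison. The 4 are Wisp1 with Kremen1, Lef1 and Tcf7, which are already counted among the receptors or nuclear factors. Lef1 is also among the 3 lower in the starved comparison. Wisp2, a matricellular gene, was at 3.21 FPKM in the starved and 2.18 FPKM in the knockdown library against 0.414 FPKM in the control library, higher apart in both. Wisp1, of the same CCN family, was at 28.6 FPKM in the starved and 93.4 FPKM in the knockdown library against 47.4 FPKM in the control library, so it too was lower apart in the starved and higher apart in the knockdown library. Apcdd1, a membrane inhibitor of Wnt signalling, was lower apart in the knockdown library at 2.09 FPKM against 6.68 FPKM in the control library. Ccnd1, the cyclin D1 gene, which Wnt and many other signals control, was lower apart in both, at 0.247 times the control in the starved and 0.323 times in the knockdown library.

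**Figure D4:**
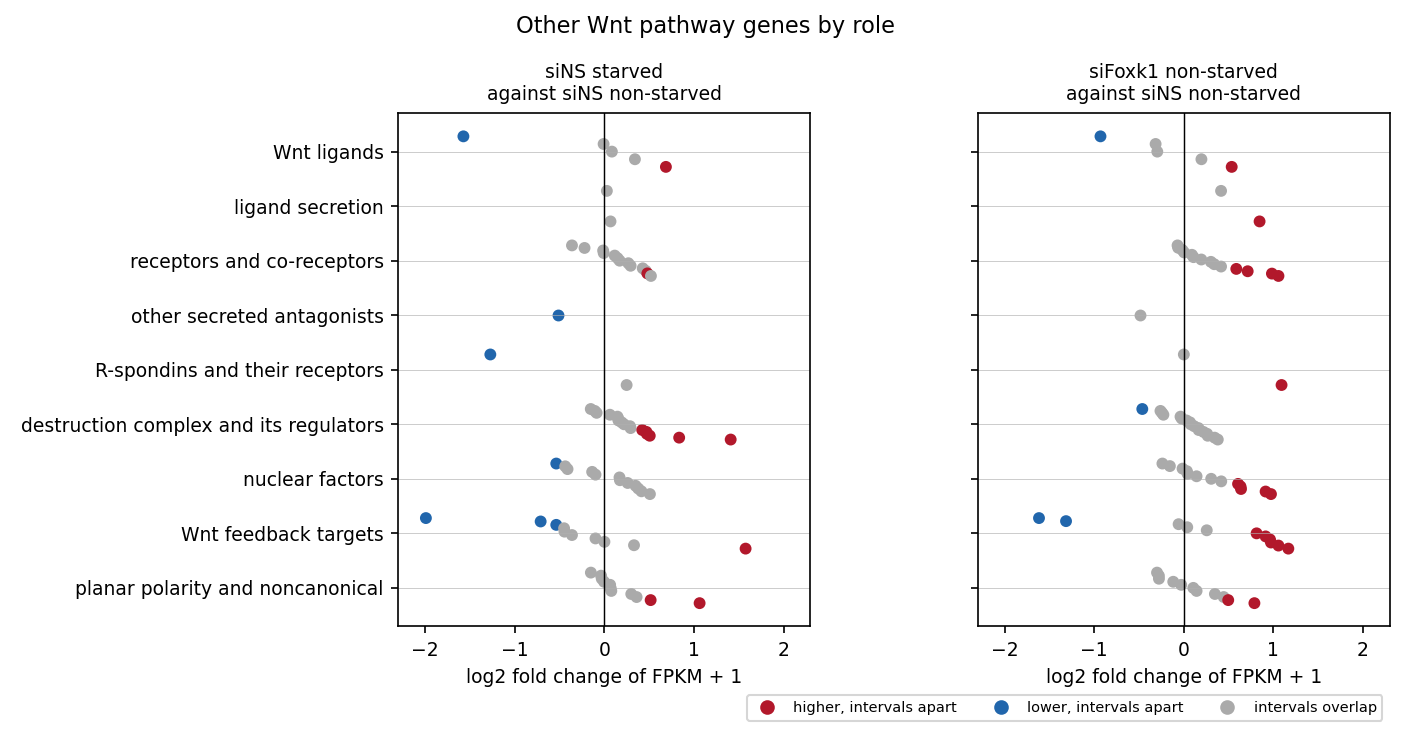
Log2 fold change of FPKM + 1 (horizontal axis) of the other Wnt pathway genes entered, by role (rows; 1 point a gene, spread vertically by rank), in the starved (left) and knockdown (right) comparison against the siNS non-starved library; red is higher apart, blue lower apart and grey overlapping, and Lef1, Tcf7 and Kremen1 stand in 2 roles. Destruction complex regulators hold 6 of the red points on the left and 0 on the right, and nuclear factors hold 0 on the left and 5 on the right.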

How the data were processed

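The authors deposited, per the file headers, a mean FPKM with lower and upper 95% limits for each gene symbol in 3 RNA libraries of C2C12 myoblasts, 1 library a group. Per the submitters' processing notes, the tools included Cufflinks 2.1.1 and Cuffdiff, TopHat2 2.0.9 and Bowtie2 2.1.0, with mm9 as the build. Not given in the sources used here: how the intervals were made, the annotation, the strand setting, and whether the mean pools replicates. The FPKM values were used as deposited, without counts or a count model. The row of Zzz3, with misordered limits in the knockdown table, was left out. Fold changes are differences of log2(FPKM + 1) from the control library, a scale on which low genes differ less than in plain FPKM, and ratios given as times use plain FPKM. Groups come from the sample titles. The members and gene lists were chosen with earlier results of these data known. Named pathway genes are, per role and comparison, up to 3 with the largest fold change among those apart, and Sfrp4 as the only other secreted antagonist at 1 FPKM. Axin1, the Dickkopf and Sfrp family genes, and genes named by count, as low, or to complete a count were added after their values were seen. The motifs were chosen with the members' values known. The 3 rows nearest to Sfrp2 and to Axin2 were taken by Euclidean distance, short RNAs left out. Alternatives tried were other filters, pseudocounts, scalings and call rules. ChIP regions were not used here. Scripts, checked on simulated data, ran in Python 3.11.15 with numpy 2.4.6, pandas 2.3.3 and matplotlib 3.10.9.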

Additional observations from a re-analysis of the deposited data

How the results depend on the processing

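The members apart were the same under both scalings. A filter at 5 FPKM left 1 member higher in the starved comparison (Dvl2), as did asking for 2-fold as well, since Dkk3 is at 3.78 FPKM and at 0.84 on log2(FPKM + 1), though at 2.27 times the control in plain FPKM. Each also left 2 of the 3 members higher in the knockdown comparison, without Sfrp1. Without a filter 2 members were lower in the starved comparison, Axin2 joining Dkk2. Of the other Wnt genes, a filter at 5 FPKM left 7 of 53 higher in the starved comparison, where 12.0% of all rows were higher. In the knockdown comparison it left 11 of 50 higher and 2 lower, where 8.68% of all rows were higher and 6.94% lower. Asking for 2-fold as well left 3 of 70 higher and 3 lower in the starved comparison. There, 2.81% of all rows were higher and 2.34% lower. In the knockdown comparison it left 3 of 73 higher and 2 lower, where 2.07% of all rows were higher and 1.07% lower. With 1.5-fold without intervals, 5 of 70 were higher in the starved comparison, a smaller share than the 10.3% of all rows, whereas by intervals it was a larger one. Scaling to the same FPKM sum, chosen after seeing the data, gave 17 of 70 higher there, where 15.6% of all rows were higher. The cause was not tested. No member that was apart changed direction under the pseudocounts or scalings tried. Of the 18 member fold changes, 4 moved beyond their limits with a pseudocount of 0.1 and 6 with 5. The 6 were all the differences of Sfrp1, Sfrp2, Dkk2 and Dkk3 that were apart, and each became smaller. In the knockdown comparison Sfrp2 went from 3.90 to 2.97 and Dkk2 from -2.04 to -1.07. With 0.1, Dkk2 there was at -2.65, so the size of these differences depends on the pseudocount. No paired analysis was possible because each group has 1 library, and with FPKM alone the depth behind low values such as those of Axin2 and Frzb is unknown.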

Other observations

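The windows with CACGTG were also read across genes, a choice made after the Dvl2 values and sequence were seen. Dvl2, with 3 copies and higher apart in the starved comparison, is itself in each set of genes counted below. Of 107 entered genes whose start window holds 2 or more copies, 26 (24.3%) were higher and 9 (8.41%) lower, intervals apart, in the starved comparison, at a median log2 fold change of 0.22. With 1 or more copies, 993 genes entered, of which 14.8% were higher and 10.8% lower, at a median of 0.04. Over all 8190 entered genes with a window, 12.0% were higher and 11.1% lower apart, with a median of -0.01. In the knockdown comparison 9 of the 107 genes with 2 or more copies were higher and 5 lower apart, against 8.82% and 7.38% of 8161 genes with a window. With 3 or more copies, 12 genes entered, and 2 of them, Dvl2 included, were higher apart in the starved comparison and 0 lower. The letters CACGTG hold a CG, and these sets of genes were not matched for the CG or G and C content of their windows. The counts were not tested, nor was any link of the motif to the Dvl2 level.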
